A study of Caenorhabditis elegans with 4 samples.

Results

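The DPY-28 peaks of intermediate score on the X chromosome of Caenorhabditis elegans are described here. They were selected on their deposited score: of the whole-series peak list, every peak on X with a score of 10 or more and below 50 was taken. This rule gave 2559 regions, out of 9098 X peaks and 10867 peaks in all. X further held 589 peaks of score 50 or more and 5950 peaks below score 10, and 436 autosomal peaks fell in the same score band. The intermediate class made up 28.1% of the X peaks and 38.6% of the X length under peaks, 1345 kb or 7.59% of X.

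DPY-28 is a condensin subunit. It is shared by condensin I, which acts on all mitotic and meiotic chromosomes, and by the dosage compensation complex, a condensin specialised for X. This complex loads onto both X chromosomes of hermaphrodite embryos and lowers their transcription towards that of the single X of males. It enters X at recruitment sites of high occupancy, named rex, and is also found along the rest of X, often near the starts of active genes, at places that need not recruit the complex on their own. A score from a peak list does not say to which kind of site a region belongs.

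The study mapped DPY-28 by chromatin immunoprecipitation and sequencing (ChIP-seq) in embryos of strain N2, the wild-type laboratory strain, with an affinity-purified rabbit polyclonal antibody. There were 2 ChIP samples, each with a peak list, and 2 input samples, for which no peak list was analysed here. All samples came from whole embryos of mixed stages and of both sexes, in proportions that are not known here. Cells with and without an assembled dosage compensation complex may therefore have been pooled, to an unknown extent. A region bound strongly in few cells cannot be told apart from one bound weakly in many. The labels do not say whether replicates 1 and 2 came from separate cultures, so their spread may be technical.

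The replicate lists stood apart from each other before any region was chosen. Replicate 1 had 1889 X peaks covering 4.66% of X, with a median width of 384 bp, and replicate 2 had 4743 X peaks covering 19.3% of X, with a median width of 588 bp. A region therefore had less replicate 1 length to overlap than replicate 2 length. Read depths are unknown. Each list comes from 1 sample or from an unstated combination of samples, and the whole-series list may rest on the same reads as the others. No comparison below was therefore tested, and the intervals given are exact binomial 95% intervals of shares, or order-statistic 95% intervals of medians. They cover counting error only and take peaks as independent, which neighbours on a chromosome are not.

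Most of the intermediate regions lay near the lower score limit. Their median score was 17.0, with quartiles of 12.64 and 25.81, and 1031 of the 2559 (40.3%) scored below 15. Only 177 (6.92%) scored 40 or more. The scores ran on without a break at both limits. The last regions inside the upper limit scored 49.94 (X 16044114 to 16044660), 49.86 (X 12347813 to 12348250) and 49.74 (X 14711087 to 14711532). The first peaks outside it scored 50.06 (X 5816007 to 5816910), 50.08 (X 14946421 to 14946987) and 50.1 (X 8059720 to 8060229). At the lower limit, X 4128463 to 4128965 and X 5263283 to 5263581 both scored 10, and X 4516842 to 4517016 scored 10.01. The first 3 peaks outside it, X 432468 to 432856, X 5029867 to 5030168 and X 5695588 to 5695902, each scored 9.99. All coordinates are those of WormBase WS220.

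The regions were short stretches of chromatin. Their median width was 442 bp (434 to 451 bp), with quartiles of 336 and 588 bp. X peaks of score 50 or more had a median of 668 bp (640 to 690 bp), X peaks below score 10 had 234 bp (231 to 238 bp), and autosomal peaks of the same score band had 388 bp (352 to 418 bp). Width and score come from the same signal, so the order of the classes was partly built in; within the band the Spearman correlation of score and width was 0.38 across 2559 regions. The autosomal peaks of the band spread over a wider range, with quartiles of 259 and 674.5 bp.

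**Figure D1:**
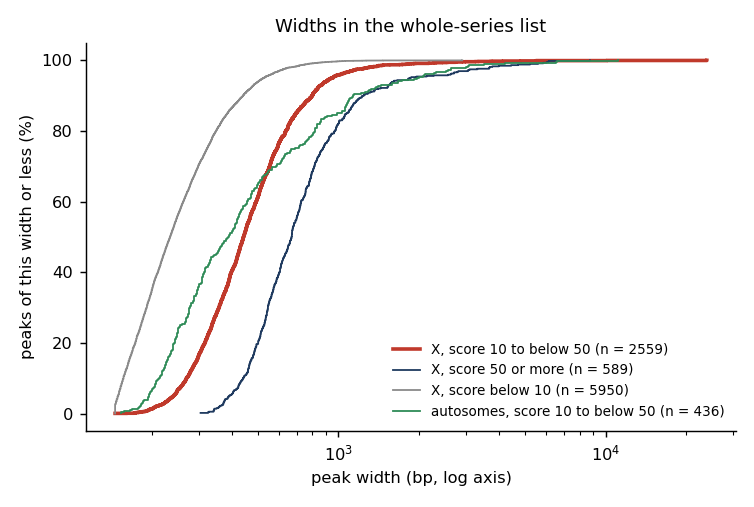
Cumulative share of whole-series peaks (vertical, %) by peak width (horizontal, bp, log axis) for 4 classes of peaks. The intermediate X peaks, with a median of 442 bp, lie between X peaks of score 50 or more (668 bp) and X peaks below score 10 (234 bp).

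A small number of regions were far wider than the rest. Of the 2559, 105 were wider than 1000 bp, 22 wider than 2000 bp, and 33 narrower than 200 bp. The widest was X 4032523 to 4056468, with 23946 bp and a score of 36.47. It overlapped a replicate 1 peak at X 4031318 to 4056494 with a replicate 1 score of 890, and no replicate 2 peak. The region next to it, X 4031341 to 4032362 (1022 bp, score 26.83), overlapped the same replicate 1 peak and again none of replicate 2. These were the 2 highest scoring regions found in replicate 1 only. The next widest, X 7351278 to 7361387 (10110 bp, score 19.78) and X 289800 to 295294 (5495 bp, score 26.04), were found in both lists. The narrowest were X 5542096 to 5542241 (146 bp), X 10107947 to 10108108 (162 bp) and X 7662636 to 7662807 (172 bp), all with scores of at most 11.03.

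Nearly all intermediate regions were found in at least 1 replicate list, and replicate 2 carried most of that support. An overlap of 1 bp or more with a replicate 2 peak was present for 2463 of 2559 regions, 96.2% (95.4 to 96.95%), where the share over all X peaks of the whole-series list was 59.7%. Replicate 1 held 840 of the regions, 32.8% (31.0 to 34.7%), against 18.9% over all X peaks. The mean of both shares was 64.5% ± 44.8 (SD, n = 2), so the level of support rested on which sample was asked. The regions were chosen on a score that may rest on the same reads, so nothing is read from these shares standing above those of all X peaks.

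The regions divided unevenly over the combinations of lists. Both replicate lists held 819 regions, 32.0% (30.2 to 33.9%), against 16.9% of all X peaks. Replicate 2 alone held 1644 (64.2%), replicate 1 alone 21 (0.82%), and neither list 75 (2.93%). At least 1 list held 2484 regions, 97.1% (96.3 to 97.7%), against 61.7% of all X peaks. Of X peaks of score 50 or more, all 589 were found in replicate 2 and 529 (89.8%) in both lists. Of X peaks below score 10, 40.1% were found in replicate 2 and 3.23% in both.

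Within the band, support in replicate 1 climbed with the score while support in replicate 2 was near its ceiling. Replicate 1 held 15.6% (13.5 to 17.98%) of the 1031 regions scoring 10 to below 15. It held 28.5% of those from 15, 41.9% of those from 20, 53.6% of those from 25, 55.0% of those from 30 and 69.5% (62.1 to 76.2%) of the 177 scoring 40 to below 50. Replicate 2 held 91.4% (89.5 to 93.0%) of the regions scoring 10 to below 15 and between 99.4% and 99.7% of every higher slice. Of the 75 regions found in neither list, 73 scored below 15.

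**Figure D2:**
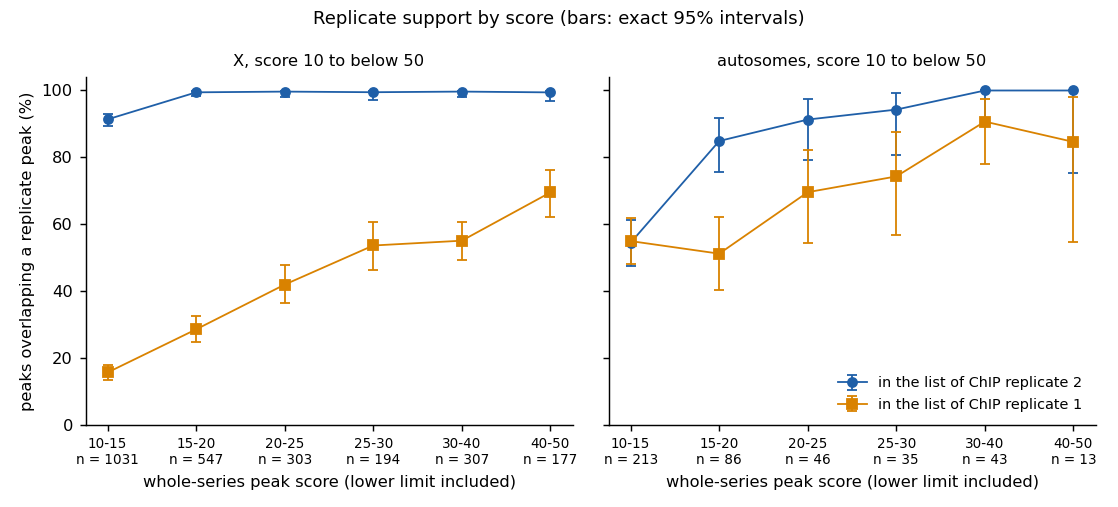
Share of whole-series peaks that overlap a replicate peak by 1 bp or more (vertical, %) by whole-series score (horizontal), for intermediate X peaks (left) and autosomal peaks of the same score band (right). Bars are exact 95% intervals; on X the replicate 1 share climbs from 15.6% to 69.5% over the score slices, below the replicate 2 share of 91.4% or more.

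Autosomal peaks of the same score band divided between the lists in another way. Replicate 1 held 32.8% of the X regions and 61.7% (56.95 to 66.3%) of the 436 autosomal peaks, and replicate 2 held 96.2% of the X regions and 73.4% (68.98 to 77.5%) of the autosomal peaks. Found in replicate 1 only were 0.82% of the X regions and 19.5% of the autosomal peaks. In the lowest slice, scores of 10 to below 15, replicate 1 held 15.6% of the X regions and 54.9% (47.98 to 61.7%) of the 213 autosomal peaks. In the slice from 20 to below 25 the replicate 1 shares were 41.9% on X and 69.6% (54.2 to 82.3%) on autosomes. In the top slice, from 40 to below 50, they were 69.5% (62.1 to 76.2%) on X and 84.6% (54.6 to 98.1%) of 13 autosomal peaks, with intervals that overlap. The replicate 2 shares came together with score: on X they were 91.4% in the lowest slice and at least 99.4% above it, and on autosomes 54.5%, 84.9%, 91.3%, 94.3%, 100% and 100% from the lowest slice to the highest. Both lists also differed in size in opposite directions, with 1889 X peaks and 1384 autosomal peaks in replicate 1 and 4743 X peaks and 501 autosomal peaks in replicate 2. The part of these list sizes in the shares was not tested, nor was the difference itself, with 1 list per sample.

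Replicate support also went with width. Replicate 1 held 11.1% (8.21 to 14.5%) of the 416 regions under 300 bp, 25.7% of the 1150 from 300 to below 500 bp, 48.1% of the 888 from 500 to below 1000 bp and 68.6% (58.8 to 77.3%) of the 105 of 1000 bp or more. Replicate 2 held 83.4% of the regions under 300 bp and 98.0% to 99.8% of the wider ones. Within bands of score, the regions found in replicate 1 also had the higher median width. Among regions scoring 20 to below 50, those found in replicate 1 had a median width of 571 bp (558 to 593 bp) and those not found there 454.5 bp (434 to 478 bp). Among regions scoring 15 to below 20, the medians were 492.5 bp (451 to 540 bp) and 403 bp (384 to 423 bp). Among regions scoring 10 to below 15, the medians were 484 bp (428 to 525 bp) and 359.5 bp (348 to 373 bp). In the band from 20 to below 50 the replicate 1 share itself climbed with score, from 41.9% to 69.5%. Score was therefore not held level there. A wider peak is overlapped more easily under a rule of 1 bp, and the part of that rule in the difference was not tested.

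The regions matched close shares of the X peaks of both replicate lists. They overlapped 2370 of the 4743 X peaks of replicate 2, 49.97%, and 923 of the 1889 X peaks of replicate 1, 48.9%. The median score of their highest scoring replicate 2 partner was 272, with quartiles of 160 and 471, at the 64.3rd percentile of the X peaks of that list. In replicate 1 the median partner score was 97.3, with quartiles of 67.8 and 158, at the 45.4th percentile. The replicate scores start at 50.05 and 50.01 and are on another scale than the whole-series score. As a description across regions, which share the same samples, the Spearman correlation of whole-series and replicate score was 0.66 over the 2463 regions found in replicate 2 and 0.37 over the 840 found in replicate 1. Between both replicate scores it was 0.38 over 819 regions.

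**Figure D3:**
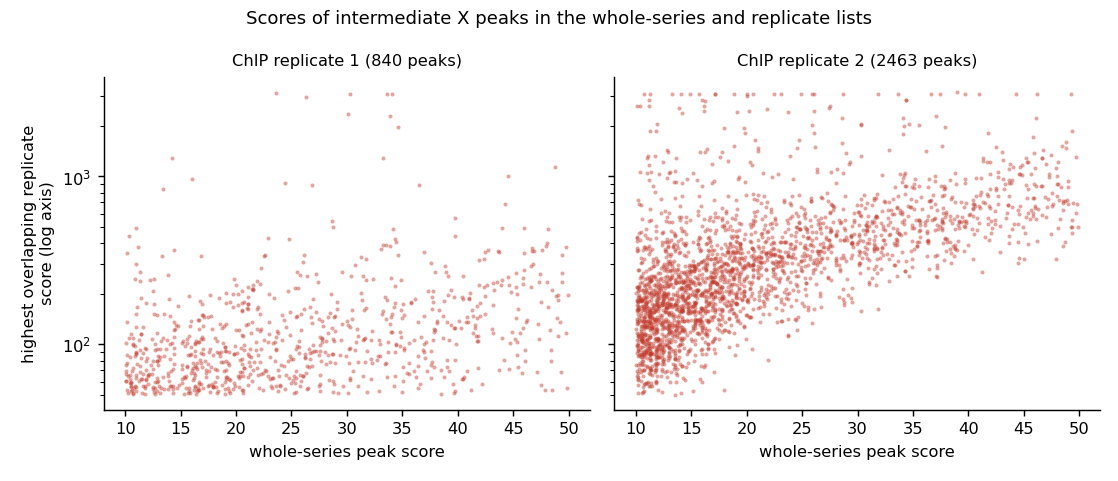
Highest score of the overlapping replicate peak (vertical, log axis) against the whole-series score (horizontal) of each intermediate X peak found in replicate 1 (left, 840 regions) or in replicate 2 (right, 2463 regions). In replicate 1 points near the lowest score of that list occur across the whole band (Spearman correlation 0.37), while in replicate 2 the points lie higher where the whole-series score is higher (0.66); the row of points at the top is the score of 3100 shared by many replicate peaks.

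Some regions of intermediate whole-series score were among the strongest peaks of a replicate list. A partner score of 3100 or more was present for 27 regions in replicate 2 and 4 in replicate 1. Over all chromosomes, 23 replicate 1 peaks and 70 replicate 2 peaks scored 3100 or more, and the exact value 3100 recurred. Whether it is a measured score or a fixed value is not stated, so peaks holding it cannot be ranked. The 4 of replicate 1, picked after their values were seen, were wide. X 17444473 to 17447718 (3246 bp) had a whole-series score of 23.62, a replicate 1 score of 3126 and a replicate 2 score of 306. X 7077418 to 7079232 (1815 bp) had a whole-series score of 34.1, a replicate 1 score of 3100 and a replicate 2 score of 1794. X 15807465 to 15811175 (3711 bp, whole-series score 33.64) had 3100 in both replicate lists, and X 16758223 to 16761563 (3341 bp, whole-series score 30.27) had 3100 in replicate 1 and 1321 in replicate 2. Among the replicate 2 partners of the regions the highest score, likewise looked up afterwards, was 3173.51, where the whole replicate 2 list reached 3197.12. The partner with 3173.51 overlapped X 16611243 to 16611859 (617 bp, whole-series score 39.02). That region lay 0.161 kb from an X peak of score 50 or more and had no replicate 1 partner. Being picked for extreme replicate scores, these few peaks do not show how the lists ranked the regions as a whole.

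The highest scoring regions found in both lists lay just under the upper limit. X 16044114 to 16044660 (547 bp, score 49.94) had 198 in replicate 1 and 498 in replicate 2. X 12347813 to 12348250 (438 bp, score 49.86) had 55.3 in replicate 1, near the lowest score of that list, and 690 in replicate 2. X 14711087 to 14711532 (446 bp, score 49.74) had 117 and 604. After them came X 14636479 to 14637128 with 49.72, X 15347582 to 15348016 (49.41), X 1517431 to 1517950 (49.4), X 2216540 to 2217015 (49.36), X 16944386 to 16945779 (49.27), X 9563883 to 9564306 (49.24) and X 12205284 to 12206041 (49.05). Over all 10, replicate 1 scores ran from 55.3 to 382 and replicate 2 scores from 462 to 3100. Within whole-series scores that differed by under 1 unit, the replicate scores thus spread over a wide range in each list. The recurring value 3100 in replicate 2 belonged to X 16944386 to 16945779, which had 68.4 in replicate 1. The sizes of scores were not compared between lists.

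Regions as high in score could lack replicate 1 altogether. X 14334078 to 14334508 (score 49.48), X 11464919 to 11465684 (49.38) and X 14327381 to 14327767 (48.77) were found in replicate 2 only, with replicate 2 scores of 691, 1853 and 405. The highest scoring region with no support in either list was X 17718215 to 17718897 (683 bp, score 40.02), which is the last peak on X and ends at the last position of any peak there. The next were X 15446008 to 15446314 (score 15.91) and X 15285581 to 15285763 (14.71). Apart from that last peak, no region found in neither list scored above 15.91. The region at the other end of the chromosome, X 1 to 345 (score 24.44), starts at the first base and was found in both lists, with scores of 914 in replicate 1 and 604 in replicate 2. The third region found in replicate 1 only was X 1412179 to 1412539 (score 20.54, replicate 1 score 209).

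Regions were spread over the whole of X. In 35 bins of about 500 kb the density averaged 144 ± 23.9 regions per Mb (SD over bins), from 86 to 206. The fewest lay in X 500001 to 1000000, with 43 regions, and the most in X 16000001 to 16500000, with 103. The first bin, X 1 to 500000, held 44 regions and also the fewest X peaks of score 50 or more (6) and the fewest X peaks below score 10 (118). The bin with most regions, at 206 per Mb, had 300 X peaks below score 10 per Mb, where the mean over bins was 336, so its excess was not shared by every class. Relative to the mean, the SD over bins was 16.6% for the intermediate regions, 27.9% for X peaks of score 50 or more and 10.95% for X peaks below score 10. These classes held 2559, 589 and 5950 peaks. A class with fewer peaks varies more between bins by counting alone, so the order of the SDs does not rank the classes by evenness. The part of class size in them was not tested. As a description over the 35 bins, which share 1 list, the Spearman correlation of region number with the number of X peaks of score 50 or more was 0.11, and with the number below score 10 it was 0.21.

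**Figure D4:**
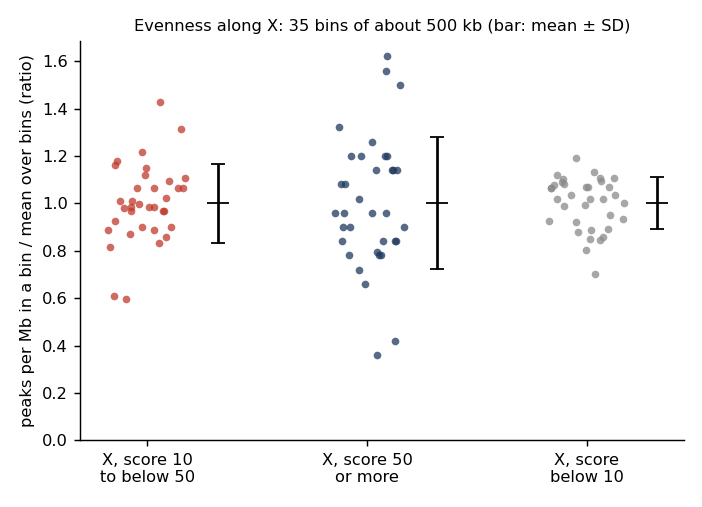
Density of X peaks in each of 35 bins of about 500 kb, divided by the mean over bins (vertical, ratio), for intermediate peaks, peaks of score 50 or more and peaks below score 10; points are bins and bars the mean ± SD. The SD is 16.6% of the mean for intermediate peaks, 27.9% for peaks of score 50 or more and 10.95% for peaks below score 10. Classes with fewer peaks vary more by counting alone, and that part was not tested.

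The arms of X were not clearly richer in intermediate regions than its centre, taken as the middle 12 bins. The 23 arm bins had 148 regions per Mb and the centre bins 138, a ratio of 1.07 (0.99 to 1.17, by the exact interval of the arm share). For X peaks of score 50 or more the ratio was 1.201 (1.005 to 1.44), and for X peaks below score 10 it was 0.98 (0.93 to 1.03). Replicate support had close values in both parts. Replicate 1 held 32.4% (30.2 to 34.6%) of the 1733 regions in arm bins and 33.8% (30.6 to 37.1%) of the 826 in centre bins, and replicate 2 held 96.0% in arm bins and 96.9% in centre bins. Bin by bin, the replicate 1 share ran from 15.9% in X 1 to 500000 to 56.5% in X 7000001 to 7500000, and the replicate 2 share from 89.6% to 100%.

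Intermediate regions were close to other peaks, though mostly to peaks below score 10. The median distance to the nearest other X peak of any score was 0.556 kb (0.525 to 0.585 kb), and to the nearest other intermediate region 1.66 kb (1.58 to 1.79 kb). Of their 5116 adjacent peaks along X, 61.5% scored below 10, 31.9% were intermediate and 6.68% scored 50 or more. Those classes made up 65.4%, 28.1% and 6.47% of all X peaks. The neighbours of an intermediate region were thus close to the make-up of X as a whole, with intermediate peaks 3.73 percentage points more frequent than over all X peaks.

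Neighbouring intermediate regions were separated by a median gap of 3.59 kb (3.29 to 3.82 kb), with quartiles of 1.32 and 8.51 kb. The gaps ran from 0.043 kb to 65.9 kb. The longest, X 507344 to 573241, held 1 X peak of score 50 or more and 24 below score 10, so the stretch without intermediate regions was not free of DPY-28 peaks. Another intermediate region lay within 1 kb of 33.7% (31.9 to 35.6%) of them, within 2 kb of 56.1% and within 5 kb of 82.3%. The part of their density, 144 per Mb of X, in these shares was not tested.

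Joined across gaps of up to 1 kb, the regions made 367 groups of 2 or more, of which 276 were pairs and 68 held 3. The largest group had 9 regions in 9861 bp at X 12174970 to 12184830, with scores of 11.33 to 32.88; replicate 2 held all 9 and replicate 1 held 4. The next had 7 regions at X 16380874 to 16390796 (scores 10.17 to 29.71), with 7 in replicate 2 and 3 in replicate 1. The third had 6 regions at X 2697487 to 2704234 (scores 13.03 to 38.9), with 6 in replicate 2 and 4 in replicate 1. The group of 9 lay 2.57 kb from the nearest X peak of score 50 or more, that of 7 lay 4.65 kb away and that of 6 lay 1.28 kb away. Counted without regard to distance, 1367 regions (53.4%) stood in runs of 2 or more with no other peak between them. The regions made up 28.1% of all X peaks, so groups and runs also arise from their number alone. That part was not tested, and no clustering beyond it is claimed. The longest runs had 8 regions, and there were 3 such runs; the first, X 3898296 to 3904781, spanned 6.49 kb with scores of 10.77 to 34.13, all 8 in replicate 2 and 1 in replicate 1.

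Part of the close spacing lay within single broad replicate 2 peaks. Of the regions found in replicate 2, 187 (7.59%) overlapped a replicate 2 peak that also overlapped another intermediate region. In replicate 1 this held for 8 of 840. Most such replicate 2 peaks carried 2 regions (78 peaks), while 8 carried 3 and 2 carried 4. The peaks with 4 regions lay at X 10360857 to 10369586 (8730 bp, replicate 2 score 3100), whose regions scored 13.22 to 22.49 and were absent from replicate 1, and at X 10203025 to 10206954 (3930 bp, replicate 2 score 1217), whose regions scored 12.42 to 45.29 and of which 3 were found in replicate 1. What one sample's list gave as a single region, the whole-series list gave there as several. The opposite also occurred, with 60 regions overlapping 2 or more replicate 1 peaks and 7 overlapping 2 or more replicate 2 peaks.

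The distance to the strongest peaks asks whether intermediate regions sit around them. The median distance to the nearest X peak of score 50 or more was 10.0 kb (9.499 to 10.6 kb) for intermediate regions, against 10.8 kb (10.3 to 11.2 kb) for X peaks below score 10. The quartiles were 4.06 and 21.6 kb for intermediate regions, against 4.66 and 22.2 kb for X peaks below score 10. Within 2 kb lay 341 of the 2559 intermediate regions, 13.3% (12.0 to 14.7%), against 11.5% (10.7 to 12.3%) of X peaks below score 10 and 12.0% of all X peaks below score 50, the intermediate ones included. Within 1 kb the shares were 7.85% (6.84 to 8.97%) of intermediate regions and 6.25% (5.65 to 6.90%) of X peaks below score 10. Within 5 kb they were 30.0% (28.2 to 31.8%) and 26.8% (25.7 to 27.9%), with intervals that do not overlap. At 0.5, 1, 2, 10, 20 and 50 kb the intervals did overlap, and all of them take neighbouring peaks as independent. Within 10 kb lay 49.9% of intermediate regions and 47.6% of X peaks below score 10, and within 50 kb 96.3% and 95.2%. Cumulative shares must meet at long distances, so nothing is read from how close they lie there. The intermediate share was the higher one at each of these distances, and its excess was not tested at any of them.

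**Figure D5:**
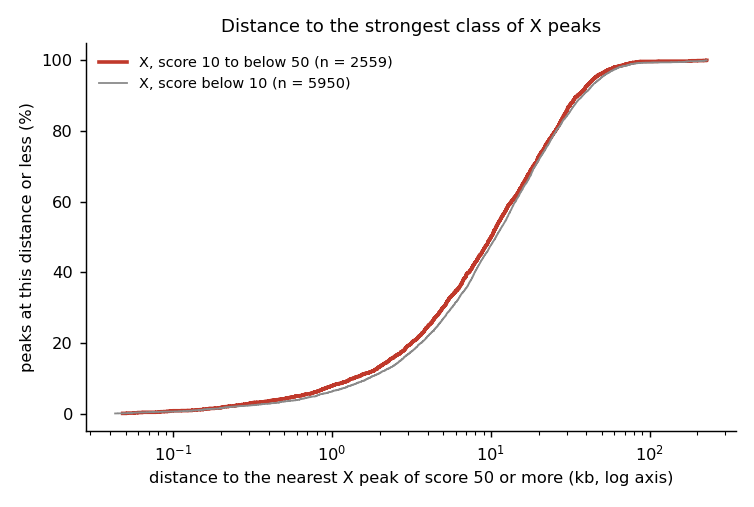
Cumulative share of X peaks (vertical, %) by the distance between their edge and the nearest X peak of score 50 or more (horizontal, kb, log axis), for intermediate peaks and for peaks below score 10. The curves run close together, with medians of 10.0 kb and 10.8 kb.

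Seen from the strongest peaks, the median distance to the nearest intermediate region was 2.39 kb (2.13 to 2.70 kb). The median distance to the nearest other X peak of score 50 or more was 9.21 kb (8.04 to 10.0 kb). These distances were not compared peak by peak. X held 2559 intermediate peaks and 589 of score 50 or more, and the part of these numbers in the distances was not tested. Of the 588 stretches between neighbouring X peaks of score 50 or more, 453 (77.0%) held at least 1 intermediate region, with a median of 3 and at most 36. The 36 lay in X 9469296 to 9622480, a stretch of 153 kb. The longest stretch, X 6410760 to 6593214 (182 kb), held 13 intermediate regions or 71.3 per Mb, where X as a whole held 144 per Mb. All 13 were found in replicate 2 and 4 in replicate 1, and their scores ran from 10.76 to 47.21.

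Beyond the outermost strong peak the regions went on to the left end of X. The 5 regions farthest from any X peak of score 50 or more all lay there: X 1 to 345 at 229 kb, X 11248 to 11525 at 218 kb, X 30230 to 30504 at 199 kb, X 46130 to 46597 at 183 kb and X 47642 to 48004 at 182 kb. Their scores ran from 10.2 to 24.44. Replicate 2 held 4 of the 5 and replicate 1 held 1, the region at the first base. Before the first X peak of score 50 or more there were 12 intermediate regions, and after the last there were 2.

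Support by the replicates was at a like level at all distances from the strongest peaks. Replicate 1 held 33.7% (28.7 to 39.0%) of the 341 regions within 2 kb of one, 33.4% of the 935 at over 2 to 10 kb, 32.1% of the 914 at over 10 to 30 kb and 32.5% (27.8 to 37.6%) of the 369 farther away. Replicate 2 held 96.8%, 96.6%, 95.2% and 97.6% of them. The median scores of these 4 distance classes were 17.34, 16.97, 16.945 and 17, and the median widths 451, 439, 440 and 451 bp. Among regions scoring 20 to below 50 the replicate 1 share was 46.8% (38.4 to 55.4%) within 2 kb and 53.9% (45.3 to 62.3%) beyond 30 kb, and among those scoring 10 to below 20 it was 24.5% (18.7 to 31.1%) and 19.3% (14.4 to 25.03%), with intervals that overlap in both cases.

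At the closest flanks of the strongest peaks, the replicate 2 list often drew 1 peak where the whole-series list had several. Of the 107 regions within 0.5 kb of an X peak of score 50 or more, 49, or 45.8% (36.1 to 55.7%), overlapped the same replicate 2 peak as that class. Over all regions found in replicate 2, at any distance, this held for 64 of 2463, 2.60%, and in replicate 1 for 3 of 840. The 107 were counted whether or not they were found in replicate 2. Only regions lying near each other can share a replicate 2 peak, so the higher share within 0.5 kb was built in. Nothing is read from that difference. Regions found in both lists had a median score of 24.16, a median width of 552 bp and a median distance of 9.54 kb to the strongest class. Those found in replicate 2 only had 15.29, 406 bp and 10.2 kb, and those found in neither had 11.26, 246 bp and 10.2 kb. The classes of support thus differed in score and width and had close median distances, and the 21 regions found in replicate 1 only had a median of 14.9 kb (8.59 to 22.7 kb).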

How the data were processed

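Peak positions and scores were analysed from 3 deposited peak lists, 1 for each of 2 ChIP samples and 1 for the whole series; the 2 input samples had no list that was used here. The submitters' processing notes name BWA as a tool and ce10 as the build. Per the file headers, coordinates are WormBase WS220 and the callers were MACS for the replicate lists and MACS v2 for the whole-series list. The score of each peak is the authors' deposited value, its scale unnamed; for thresholds, depths and the way input and replicates entered the whole-series list, nothing is stated in the labels or headers. It was used only to choose and rank peaks within a list.

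Overlap was at least 1 bp on the same chromosome. Distances counted the bases between edges. The size of X was its last peak end, 17718897. Bins of 500 kb were counted by peak midpoint, with a short last bin joined to its neighbour, and centre bins have their midpoint in the middle 33.3% of X. Functions were tested on simulated lists with known overlaps and distances. No comparison between groups could be tested, so no p-value is given. Regions named are the 10 highest scoring found in both lists, the 3 highest of each other support class, the widest, narrowest, farthest and limit regions, the 3 largest groups and the extreme bins. Regions with the highest replicate scores, the replicate 2 peaks with most regions, the first of the longest runs, the longest gap, the longest and fullest stretches, the first bin and the bins of extreme replicate support were picked after their values were seen. The regions and lists were chosen with earlier results of these data known. Genes and sequences at the regions were not analysed here, since no genome of the build was used. Python 3.11.15, numpy 2.4.6, scipy 1.17.1, pandas 2.3.3 and matplotlib 3.10.9 were used.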

Additional observations from a re-analysis of the deposited data

How the results depend on the processing

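Of 51 alternatives, 13 stayed inside the 95% interval of the value reported (for the number of regions, within 1.5 times), 38 left it and 0 reversed. Shares, counts, widths, distances and gaps have no direction to reverse, so only the arm to centre ratio could have done so. The causes were not tested beyond what each setting's construction shows. Support in at least 1 list, replicate 1, replicate 2 and both was 85.8%, 19.5%, 82.1% and 15.8% with 50% reciprocal overlap, and 88.2%, 16.02%, 87.4% and 15.2% with replicate peaks of score 100 or more. In the band from 20 to below 40 it was 100%, 49.8%, 99.6% and 49.4% of 804 regions, whose median width was 501 bp and median gap 13.3 kb, with 10.9% within 1 kb of another. With the midpoint inside a replicate peak, replicate 1 held 26.8% and both 26.0%. Without 1 replicate, support ran from 32.8% (replicate 1 alone) to 96.2% (replicate 2 alone).

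With peaks closer than 500 bp merged, replicate 1 held 34.9% and both 34.0%, the median width was 569 bp, the distance to peaks of score 50 or more 10.7 kb with 10.9% within 2 kb, the gap 4.52 kb, and 24.3% lay within 1 kb of another. Against peaks of score 100 or more the distance was 36.97 kb with 4.49% within 2 kb. From midpoint to midpoint the distance was 10.7 kb with 9.03% within 2 kb, the gap 4.07 kb, and 15.8% lay within 1 kb; with a limit of 2 kb the share was 56.1%. The 819 regions found in both lists had a median width of 552 bp and a gap of 11.1 kb, with 15.8% within 1 kb. The ratio of arm to centre density stayed between 1.01 and 1.10. With peaks closer than 500 bp merged it was 1.098 (1.001 to 1.205), with an interval just above 1. Sequence composition and motifs were not run. No paired analysis was possible because the results come from no test and input lists were not used here. Read depth is unknown, and 2 samples limit every statement on support.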
